A study of Camelus dromedarius with 10 samples.

Results

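RNF216, ARC and DLG4 encode a ubiquitin ligase, a protein made on neuronal activity and a scaffold of the synapse. They were found in the table of counts per gene through the Ensembl gene IDs that the study's supplementary tables pair with these symbols. Each symbol had 1 ID, which was ENSCDRG00005018101 for RNF216, ENSCDRG00005013348 for ARC and ENSCDRG00005018407 for DLG4. These are 3 of the 22444 IDs in the table, and all 3 were among the 14432 that passed the filter on low counts. The genes were selected on the log2 fold change and p-value of the study's own comparison of its groups, made on these libraries, so that difference is described here for each of them without a test.

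RNA came from the rostral part of the supraoptic nucleus (SON), a hypothalamic nucleus of magnocellular neurones, of male dromedary camels (Camelus dromedarius) 4 to 5 years old. The 5 control camels drank freely, and the 5 camels of the water deprivation (WD) group had no water for 20 days, while both groups had food at all times. Each camel gave 1 library, named here by its group and the number in its label (CON2, CON3, CON4, CON5 and CON13, and WD6, WD7, WD8, WD9 and WD15). A library holds RNA of all cells of the dissected tissue, without ribosomal RNA, and stands for transcripts only, so nothing was measured on the proteins.

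RNF216, also known as TRIAD3, belongs to the RBR class of E3 ligases, which attach ubiquitin to other proteins. In neurones it marks the ARC protein for destruction by the proteasome. ARC is transcribed within minutes of synaptic activity, its mRNA travels into dendrites, and its protein removes AMPA-type glutamate receptors from the synaptic surface by endocytosis. DLG4 encodes PSD-95, the main scaffold of the postsynaptic density at excitatory synapses, which holds glutamate receptors, adhesion proteins and signalling enzymes in place.

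Read pairs counted on genes ranged from 1665098 in CON13 to 8126641 in WD9. Of these, the 5 most abundant gene IDs held 27.7% to 76.1%, so depth for all other genes differed more than the totals. In CPM (read pairs of a gene per 1e+06 counted) after TMM normalization, 1 read pair was worth 1.20 CPM in CON13 and 0.475 CPM in WD6, the shallowest libraries by this measure, and between 0.0864 and 0.237 CPM in the other 8. Of 9 genes listed as markers of magnocellular neurones, 6 had an ID and all 6 were detected in every library. The genes for vasopressin and oxytocin, which define these neurones, have no ID in the tables used and are not analysed here.

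RNF216 was higher in the WD camels. Its level was 48.5 CPM in CON2, 49.4 in CON3, 59.6 in CON4, 55.6 in CON5 and 50.2 in CON13, from between 42 and 519 read pairs a library. In the WD group the level was 143 CPM in WD6, 119 in WD7, 82.2 in WD8, 138 in WD9 and 92.9 in WD15, from between 302 and 1597 read pairs. All WD libraries lay above all control libraries, and the nearest pair, WD8 and CON4, stood 1.38-fold apart. The mean was 52.7 ± 4.75 CPM in control libraries and 115 ± 27.0 CPM in WD libraries (SD, n = 5 each), and the log2 fold change from edgeR's fit was 1.12 with a standard error (SE) of 0.18, or 2.17-fold. Since each library holds RNA of many cells, more or fewer cells of a type and more or less RNA per cell cannot be told apart, for RNF216 and for every gene below.

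The WD camels also differed more among themselves in RNF216 than the control camels did. The SD of its log2 CPM was 0.13 in control libraries, where counting error alone gives 0.13. In WD libraries the SD was 0.35, where counting error alone gives 0.06. WD6 and WD9 were the highest of the WD group, and WD8 and WD15 the lowest.

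ARC was lower in the WD camels, at a level near the limit of these libraries. The control libraries held 18 read pairs (CON2), 35 (CON3), 48 (CON4), 26 (CON5) and 8 (CON13), or 3.84, 8.28, 5.51, 3.81 and 9.57 CPM in that order. The WD libraries held 2 (WD6), 13 (WD7), 12 (WD8), 13 (WD9) and 11 (WD15), or 0.949, 1.66, 1.84, 1.12 and 2.29 CPM. No WD library reached the lowest control library, CON5, which stood 1.66-fold above WD15. The mean was 6.20 ± 2.62 CPM in control and 1.57 ± 0.545 CPM in WD libraries (SD, n = 5 each), with a log2 fold change of -1.87 (SE 0.45), or 3.65-fold.

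Only 186 of all read pairs fell on ARC, 135 in control and 51 in WD libraries. The exact Poisson interval (95%), which covers counting error only, ran from 4.13 to 18.8 CPM for the 8 read pairs of CON13 and from 0.115 to 3.43 CPM for the 2 of WD6. In the WD group the SD of log2 CPM was 0.49, below the 0.59 that counting error alone gives. At this depth, differences in ARC among the WD camels were therefore not detectable.

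DLG4 was lower in the WD camels by a smaller factor. Its level was 136 CPM in CON2, 175 in CON3, 170 in CON4 (169.8), 156 in CON5 and 198 in CON13, from between 166 and 1480 read pairs. In WD6 it was 130.0 CPM, in WD7 134, in WD8 88.8, in WD9 116 and in WD15 86.7, from between 274 and 1340 read pairs. The groups met almost without a gap, since CON2, the lowest control, was 1.01-fold above WD7, the highest WD library. The mean was 167 ± 23.3 CPM in control and 111 ± 22.3 CPM in WD libraries (SD, n = 5 each), with a log2 fold change of -0.58 (SE 0.18), or 1.499-fold. With 7745 read pairs in all, counting error accounts for little of the spread of DLG4, whose log2 CPM had an SD of 0.20 in control and 0.30 in WD libraries against 0.07 and 0.06 from counting alone.

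The groups did not overlap for 3 of the 3 genes, as for 2.62% of all genes tested. RNF216 was among the 1.34% of genes tested with all WD libraries above all control libraries, and ARC and DLG4 were among the 1.27% with all of them below. The adjusted p of edgeR's quasi-likelihood test was at or under 0.05 for 1 of the 3 (RNF216, and for 0 of the 3 with library totals alone), as for 0.499% of all genes, and that of DESeq2's Wald test for 3 of the 3, as for 1.27% of genes. These counts describe how the genes were chosen, and nothing is read from them.

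**Figure D1:**
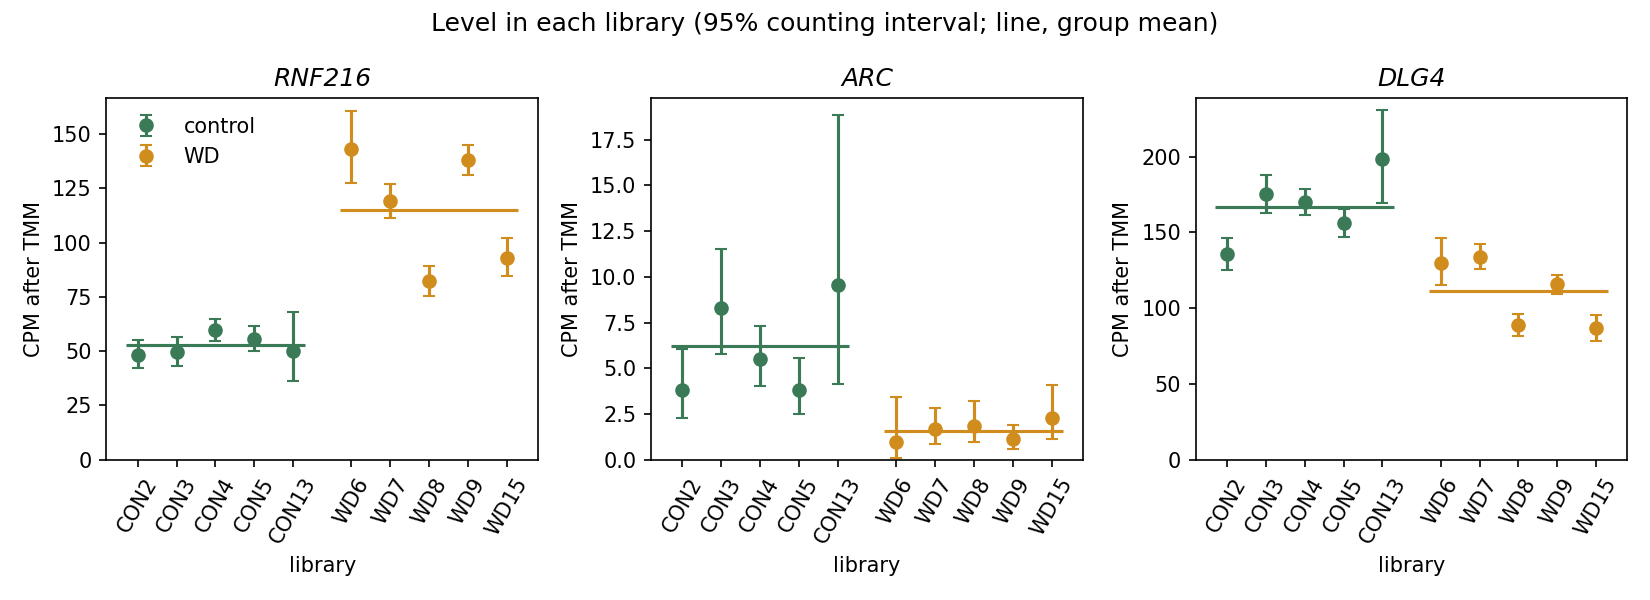
Level of RNF216, ARC and DLG4 in each library in CPM after TMM normalization, on an axis that starts at 0. Points are libraries with the exact 95% Poisson interval of their read pairs, green for control and orange for WD, and lines are group means, with WD above control throughout for RNF216 and below it throughout for ARC and DLG4.

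A ratio of read pairs of 2 genes in the same library does not depend on how libraries are scaled. Such a ratio also reflects the lengths of the genes, so only its difference between libraries is read. There were 0.358 read pairs of RNF216 for each of DLG4 in CON2, 0.283 in CON3, 0.351 in CON4, 0.357 in CON5 and 0.255 in CON13. In the WD libraries the ratio was 1.10 (WD6), 0.889 (WD7), 0.926 (WD8), 1.19 (WD9) and 1.07 (WD15). On the log2 scale, the SD of this ratio was below that of RNF216 itself in WD libraries (0.18 against 0.35) and above it in control libraries (0.23 against 0.13). The mean log2 ratio was -1.65 ± 0.23 in control and 0.04 ± 0.18 in WD libraries (SD, n = 5 each), a difference of 1.697, or 3.24-fold.

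For RNF216 and ARC, the ligase and its substrate, the ratio was 12.3 in CON2, 5.90 in CON3, 10.7 in CON4, 14.4 in CON5 and 5.00 in CON13. It was 121 in WD6, 69.1 in WD7, 42.8 in WD8, 118 in WD9 and 38.8 in WD15, above all control libraries. These values rest on few read pairs of ARC, 2 in WD6 and 8 in CON13. The log2 ratio was 3.15 ± 0.67 in control and 6.12 ± 0.78 in WD libraries (SD, n = 5 each), a difference of 2.97, or 7.83-fold. With 2 in place of 0.5 added to each count, the difference was 2.80. The ratio of ARC to DLG4, by contrast, did overlap, since WD15 (-5.18 on the log2 scale) lay above CON5 (-5.33). Its log2 mean was -4.81 ± 0.45 in control and -6.08 ± 0.70 in WD libraries (SD, n = 5 each), a difference of -1.27, or 2.42-fold lower. These ratios combine the values that chose the genes and were not tested.

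**Figure D2:**
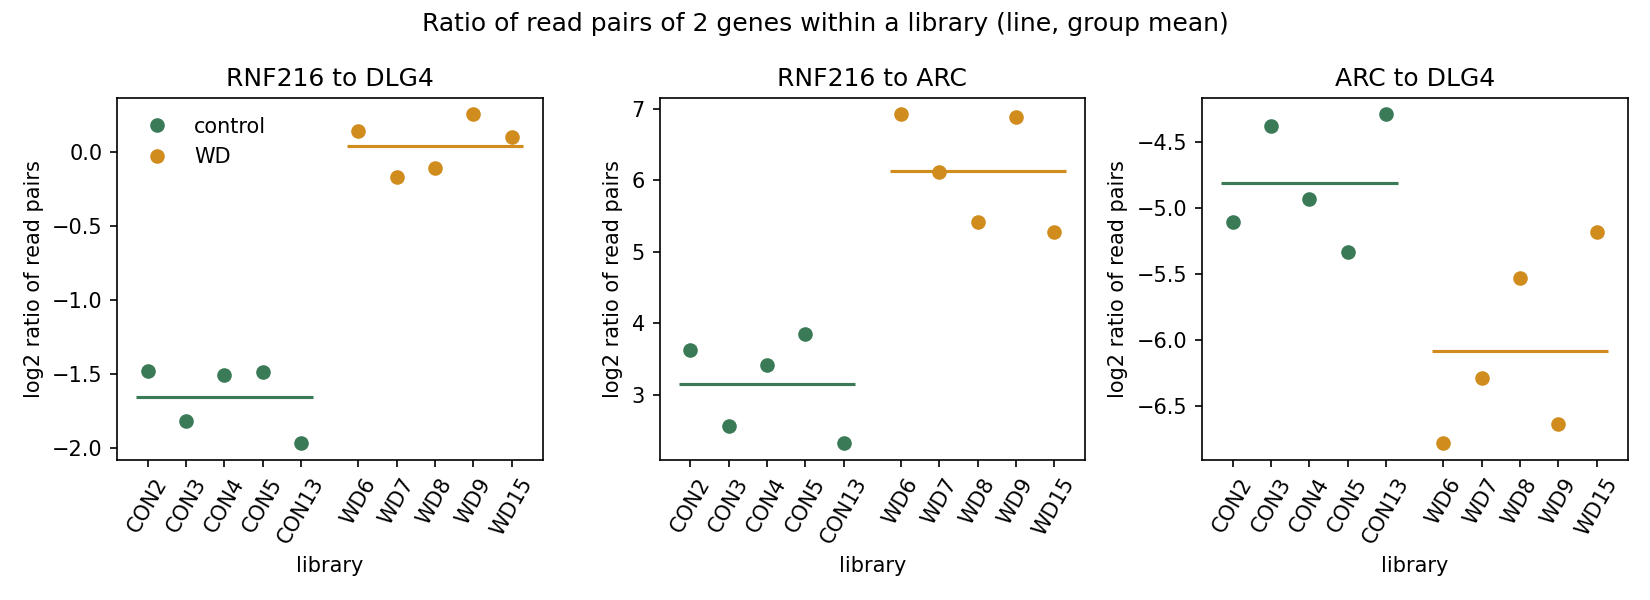
Log2 ratio of the read pairs of 2 of the genes within each library, with 0.5 added to each count. Points are libraries, green for control and orange for WD, and lines are group means, with all WD libraries above all control libraries in both ratios of RNF216 and an overlap between WD15 and CON5 in the ratio of ARC to DLG4.

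Within the groups, the genes paired differently. After the group means were taken away from the log2 CPM of the 10 libraries, Pearson's r was 0.69 between RNF216 and DLG4, -0.59 between RNF216 and ARC, and 0.02 between ARC and DLG4. For RNF216 and DLG4 this was seen in the WD group, where WD6, WD7 and WD9 were the 3 highest and WD8 and WD15 the 2 lowest in both genes. The control group did not show it, since CON13 and CON3, the highest in DLG4, were below CON4 and CON5 in RNF216. These r describe 10 points that share library, depth and tissue, and for ARC they rest on few read pairs.

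The direction of each difference was the same among the shallower and the deeper libraries, although depth still varied within both sets. Among the 5 libraries with the fewest read pairs outside the 5 dominant IDs (CON2, CON3, CON13, WD6 and WD15, with between 397495 and 2387355), the difference of mean log2 CPM, WD minus control, was 1.22 for RNF216, -2.12 for ARC and -0.66 for DLG4. Among the other 5 (CON4, CON5, WD7, WD8 and WD9) it was 0.94, -1.55 and -0.55. Leaving out any single library, the log2 fold change of RNF216 lay between 1.03 (without WD6) and 1.20 (without WD8), that of ARC between -2.03 (without CON2) and -1.72 (without CON3), and that of DLG4 between -0.68 (without WD7) and -0.50 (without WD15). With the RNA integrity number (RIN) as a covariate the values were 1.21, -1.94 and -0.49, so the direction was the same for each gene.

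**Figure D3:**
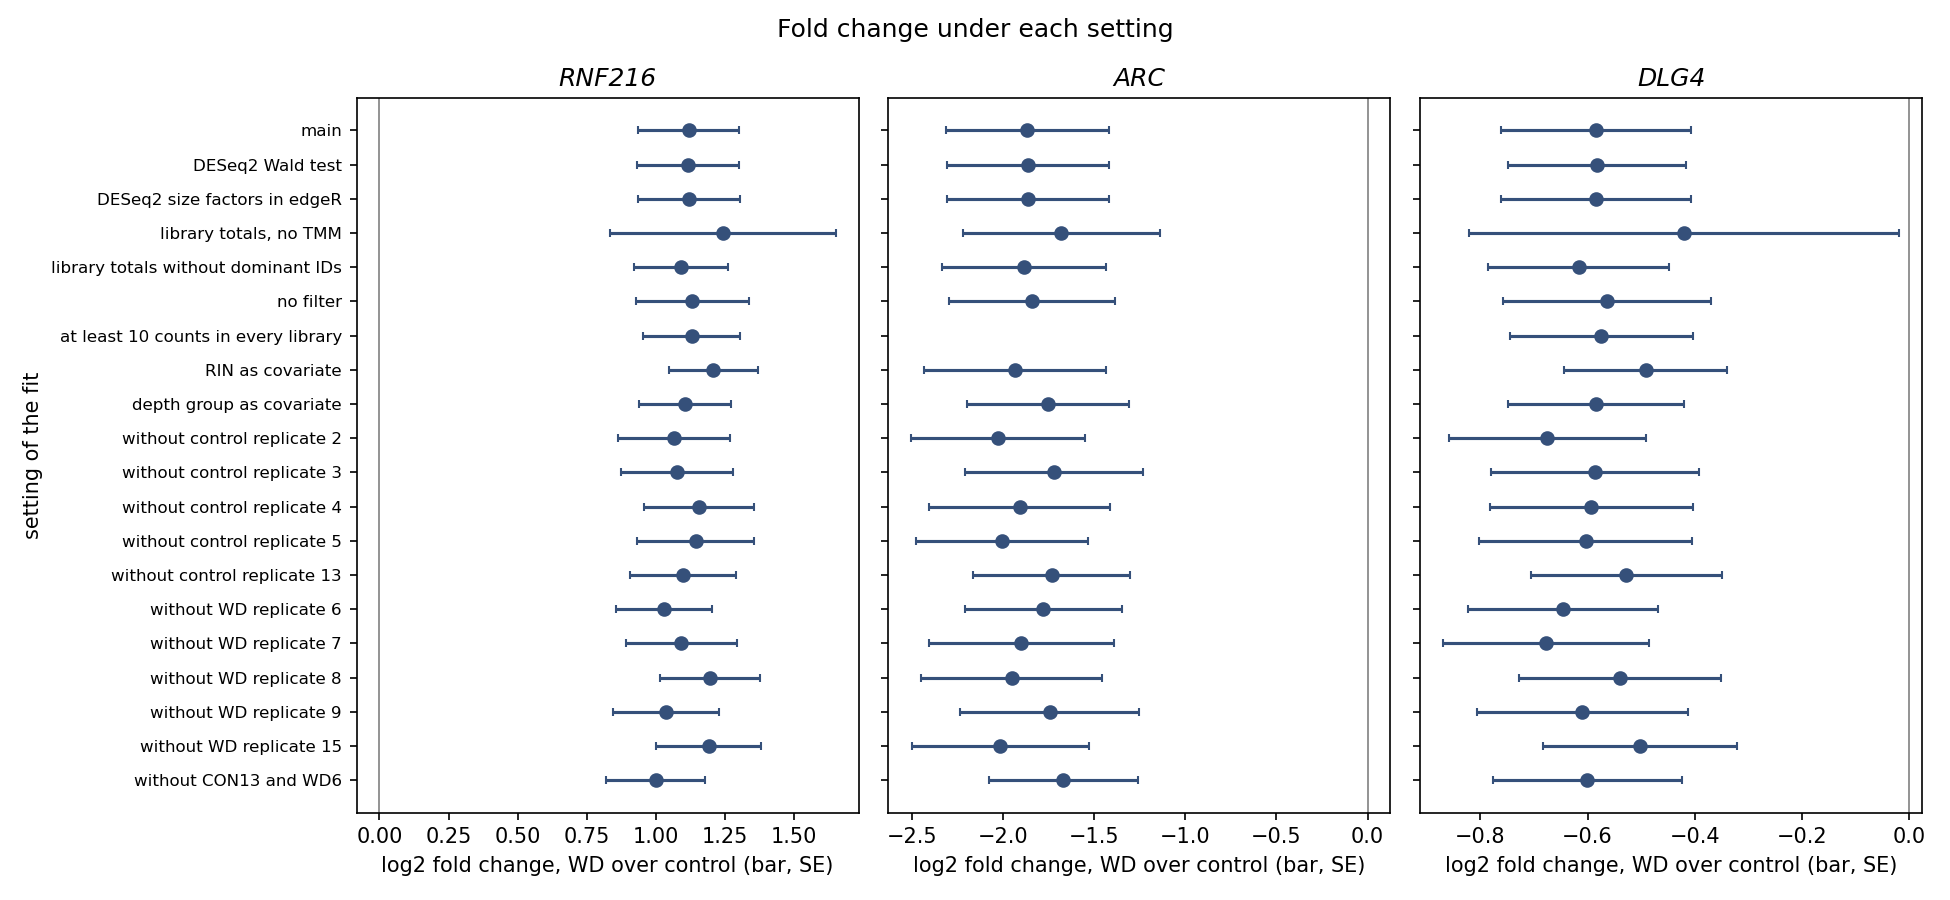
Log2 fold change of RNF216, ARC and DLG4, WD over control, under each setting of the fit, with the SE as a bar. The points stay between 0.999 and 1.24 for RNF216, between -2.03 and -1.67 for ARC, which has no value where at least 10 counts in every library are required, and between -0.68 and -0.42 for DLG4.

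Genes known to act around the 3 genes were taken from 6 lists, of which 67 genes had an ID and were tested. No ID was found for 3 of 12 ARC transcription factors, 7 of 26 activity genes, 5 of 13 ARC partners, 2 of 6 RNF216 substrates, 15 of 27 genes of ubiquitin and proteasome and 25 of 49 DLG4 partners, which were not run. Most have an ID through tables of gene classes in the study's supplement. Others have one only through the table of its own comparison, of which the copy used here holds the rows with the smallest p, so directions of those genes are not counted below. Of the 67 genes, 3 were past edgeR's threshold (0.499% of all genes tested), and all 3 were higher in WD libraries (0.27% of all genes). Where genes at an unadjusted p under 0.05 in edgeR are counted below, the share over all genes tested is 9.31%. Over all genes tested, 7490 were higher and 6942 lower in WD libraries, with a median log2 fold change of 0.02.

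The first list holds transcription factors that act on promoters switched on by activity, such as that of ARC. Of its 9 genes tested, 6 were higher and 3 lower in WD libraries, with a median log2 fold change of 0.17, and 1 was past the threshold. This was CREM, a factor of the cAMP response, which rose from 5.66 ± 2.63 CPM in control to 21.4 ± 4.31 CPM in WD libraries (SD, n = 5 each; log2 fold change 1.77, SE 0.27, adjusted p = 0.00313, edgeR). Its levels were between 1.20 and 8.11 CPM in control and between 15.1 and 25.7 CPM in WD libraries. ELK1 and SRF, partners at serum response elements, had log2 fold changes of -0.50 (adjusted p = 0.51, edgeR) and -0.32 (adjusted p = 0.714, edgeR). MEF2C and MEF2A, which bind activity-dependent enhancers, had 0.49 (adjusted p = 0.492, edgeR) and 0.33 (adjusted p = 0.724, edgeR).

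Of the genes induced by neuronal activity, the class to which ARC belongs, more were higher than lower in WD libraries, but few passed the test. ARC, chosen on its difference, was lower, and the class was not tested as a set. Of 13 genes tested from the class tables, 10 were higher and 3 lower, with a median log2 fold change of 0.60, and 2 were past the threshold. FOS, a subunit of the AP-1 transcription factor, was at 14.5, 15.6, 16.4, 11.7 and 16.7 CPM in CON2, CON3, CON4, CON5 and CON13, and at 39.9, 26.5, 37.6, 56.5 and 45.2 CPM in WD6, WD7, WD8, WD9 and WD15. Its rise was from 15 ± 2.03 to 41.2 ± 10.96 CPM (SD, n = 5 each; log2 fold change 1.48, SE 0.22, adjusted p = 0.00313, edgeR). SIK1, a salt-inducible kinase, rose from 10.8 ± 3.43 to 25.1 ± 7.81 CPM (SD, n = 5 each; log2 fold change 1.27, SE 0.28, adjusted p = 0.0476, edgeR), but it was past the threshold in only 1 of the 10 fits that dropped a library (without WD7).

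FOSL2 (0.91, SE 0.26), NR4A1 (0.88, SE 0.32) and FOSL1 (0.86, SE 0.56) had the next largest log2 fold changes above 0, with adjusted p of 0.194, 0.355 and 0.69 (edgeR). The tested genes of this list on the side of ARC were NR4A2, EGR1 and PLK2, and none of them passed the test. EGR1, a zinc finger factor that binds the ARC promoter, had a log2 fold change of -0.72 (SE 0.28, adjusted p = 0.413, edgeR), NR4A2, a nuclear receptor, of -0.82 (SE 0.56, adjusted p = 0.709, edgeR), and PLK2, a kinase, of -0.03. EGR2, EGR3, EGR4, NPAS4 and BDNF did not pass the filter on low counts. Summed over control and over WD libraries, EGR2 had 54 and 37 read pairs, EGR3 63 and 31, and EGR4 27 and 30. NPAS4 had 45 and 46, and BDNF 9 and 65.

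Among partners of the ARC protein, 2 of the 6 genes tested from the class tables were higher and 4 lower, and 0 passed edgeR's threshold, with 2 at an unadjusted p under 0.05 (9.31% of all genes). CAMK2A, the alpha subunit of the calcium/calmodulin-dependent kinase of excitatory synapses, came nearest. It was between 68.2 and 89.7 CPM in control and between 28.8 and 62.2 CPM in WD libraries, so that the groups were apart. The means were 83.9 ± 8.92 and 46.6 ± 11.9 CPM (SD, n = 5 each; log2 fold change -0.87, SE 0.19, adjusted p = 0.0501, edgeR), and DESeq2's Wald test placed it past the threshold (adjusted p = 5.9e-04), as did 7 of the other 18 alternatives. CAMK2B, the beta subunit, had a log2 fold change of -0.51 (SE 0.19, adjusted p = 0.367, edgeR).

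On the side of RNF216, 2 of its other known substrates were tested from the class tables, and 0 were past the threshold in edgeR or DESeq2, with 2 at an unadjusted p under 0.05 (9.31% of all genes). TLR4, a receptor of innate immunity, had a log2 fold change of 0.92 (SE 0.28, adjusted p = 0.229, edgeR), and RIPK1, a kinase of inflammatory signalling, of 0.66 (SE 0.24, adjusted p = 0.349, edgeR). TRAF3, an adaptor of the same pathways, had 0.39 (SE 0.17, adjusted p = 0.478, edgeR) with the WD libraries above the control libraries, but it has its ID only through the study's own comparison. TLR4 is also a gene of microglia, whose markers are described below.

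Of the 27 genes listed for ubiquitin transfer, ubiquitin removal and the proteasome, 15 had no ID and were not run. Of the 12 tested, 7 were higher and 5 lower, with a median log2 fold change of 0.06, and 0 were past the threshold in edgeR or DESeq2, or at an unadjusted p under 0.05 in edgeR. RBCK1, an RBR ligase like RNF216, had a log2 fold change of 0.07 (SE 0.17). MDM2, an E3 ligase that acts on p53 and on PSD-95, had 0.16 (SE 0.23). The largest sizes were those of the proteasome subunits PSMB9 (-0.63, SE 0.56, adjusted p = 0.794, edgeR) and PSMB1 (0.28, SE 0.19, adjusted p = 0.718, edgeR).

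The list of DLG4 partners shares CAMK2A, CAMK2B and GRIN2B with that of ARC partners, so the lists are not independent. CAMK2A and CAMK2B are the ARC partners of the class tables counted above at an unadjusted p under 0.05. They are counted again here, beside EPHB2. Of 15 partners of PSD-95 tested from the class tables, 10 lay on the side of DLG4. That is, 5 were higher and 10 lower, with a median log2 fold change of -0.22 beside 0.02 over all genes, and 0 were past edgeR's threshold, with 3 at an unadjusted p under 0.05 (9.31% of all genes). EPHB2, an ephrin receptor of excitatory synapses, had a log2 fold change of -0.78 (SE 0.28, adjusted p = 0.357, edgeR) with all WD libraries below all control libraries, as had CAMK2A. NOS1, the neuronal nitric oxide synthase that binds PSD-95, had -0.38 (SE 0.20), ADAM22 -0.36 (SE 0.22) and ERBB4 -0.33 (SE 0.29). On the other side were the kinases PTK2B (0.37, SE 0.35) and FYN (0.16, SE 0.18) and the adhesion receptor ADGRB3 (0.19, SE 0.23). Another 9 partners, among them the glutamate receptor subunits GRIN1 (-0.46), GRIN2D (-0.71) and GRM5 (-0.61) and the neurexin NRXN2 (-0.48), have an ID only through the rows with the smallest p of the study's comparison. They had log2 fold changes from -1.08 (CACNG8) to -0.41 (GRIN2B), with 0 past edgeR's threshold, 8 at an unadjusted p under 0.05, and 1 (NRXN2) past that of DESeq2's Wald test.

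**Figure D4:**
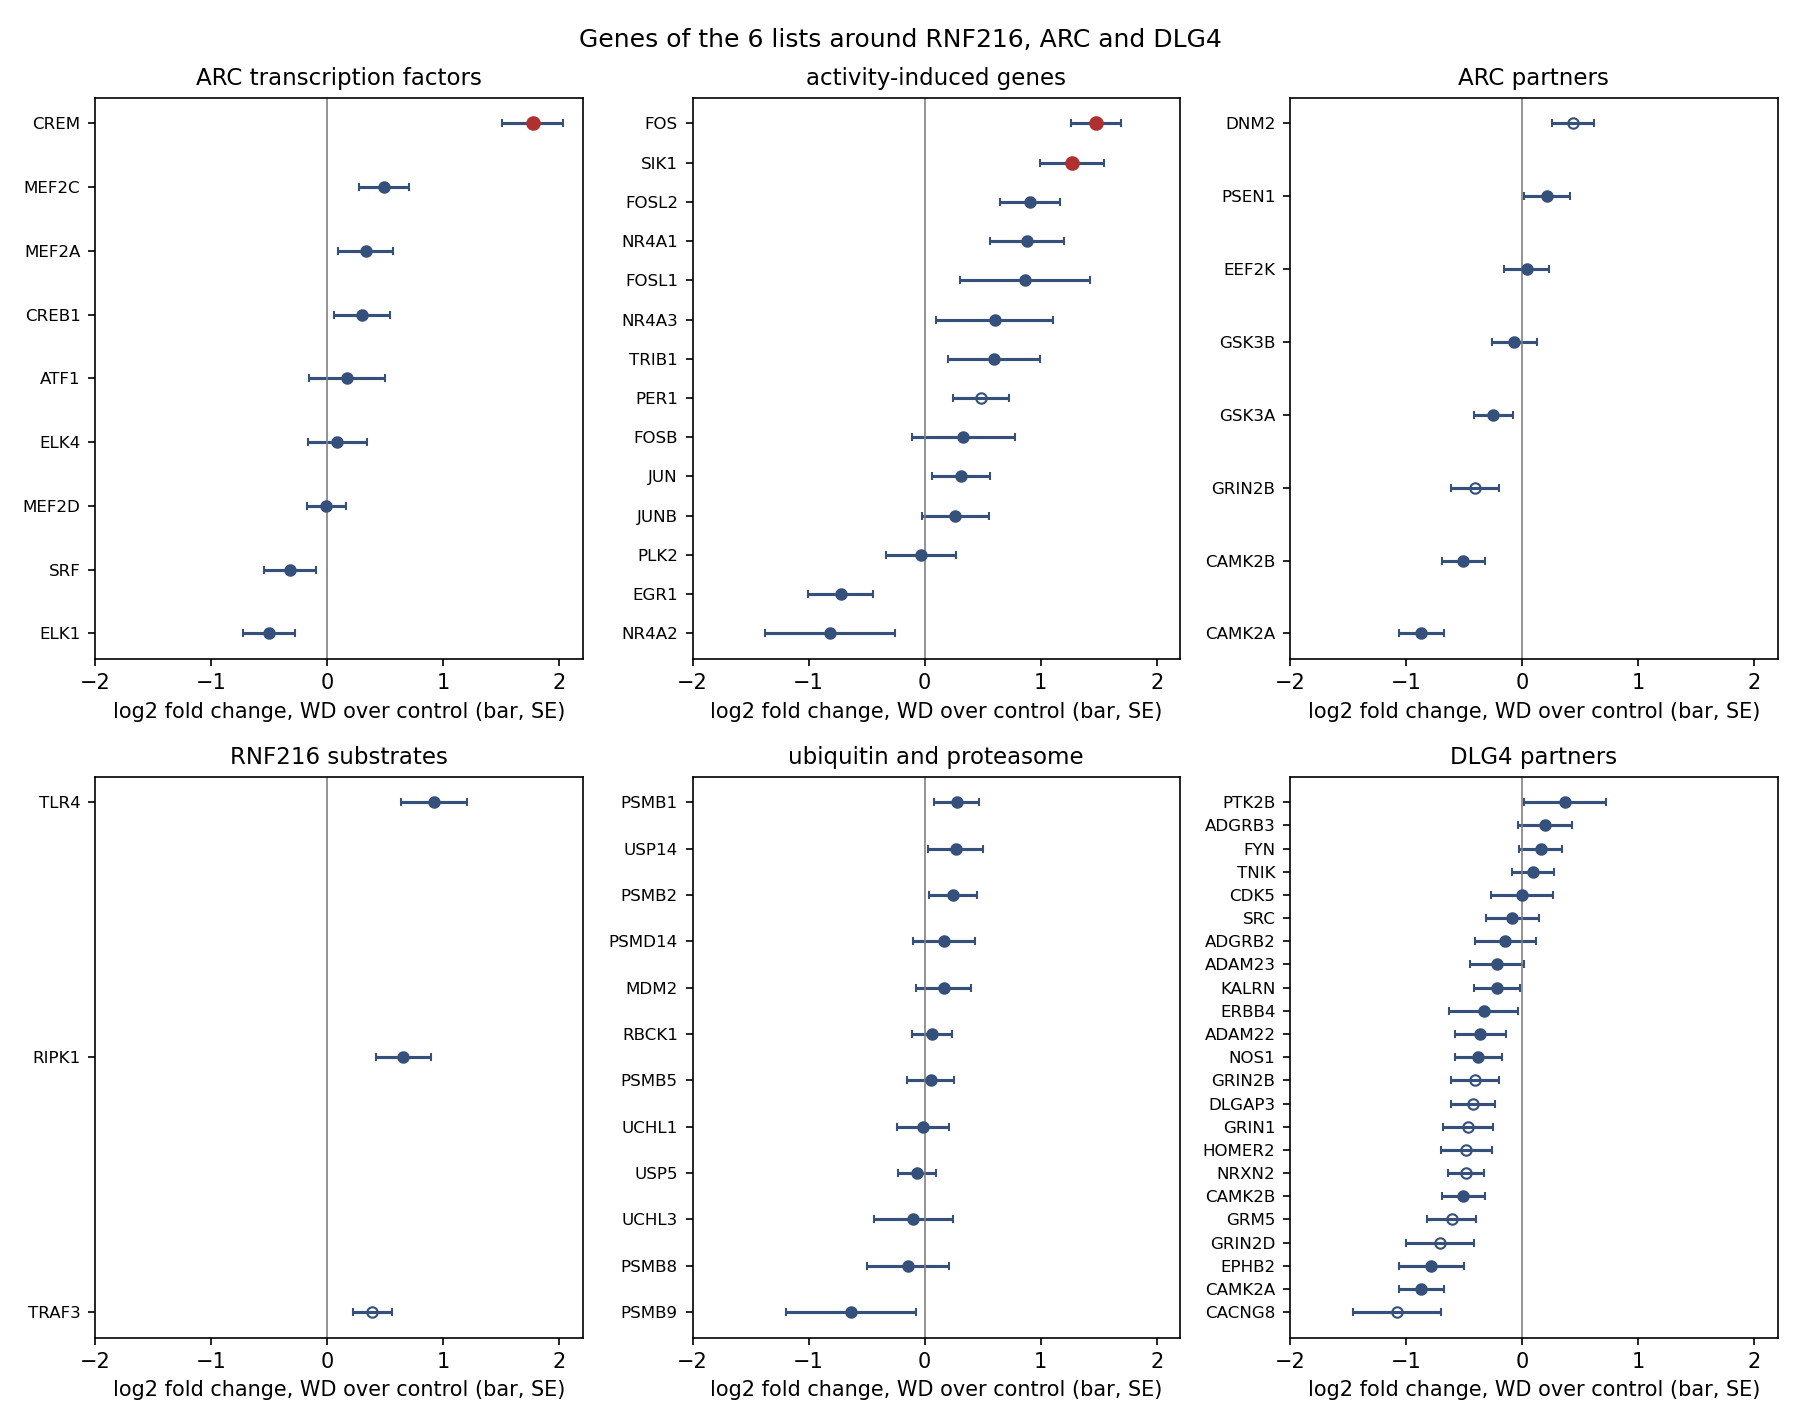
Log2 fold change, WD over control, of the tested genes of the 6 lists, without 1 that is counted but not shown, with the SE as a bar. Red points are past edgeR's threshold (CREM, FOS and SIK1), blue points are not, and open points have an ID only through the study's own comparison. Of the points that are not open, 10 of 13 genes of activity lie right of 0 and 10 of 15 partners of DLG4 left of it, and no direction is read from open points.

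Summed levels of cell type markers are given for each group beside the 3 genes, and their part in these results was not tested. Where markers have an ID only through the rows with the smallest p of the study's comparison (2 of 3 neuronal, 4 of 4 astrocyte, 4 of 11 microglial and 1 of 6 magnocellular markers), the distance between the groups in such a sum is partly set by that choice, and nothing is read from it. For general neuronal markers, 3 of 12 had an ID (NEFL, MYT1L and THY1), and their sum was between 302 and 389 CPM in control and between 123 and 314 CPM in WD libraries. MYT1L, the 1 of them with an ID through the class tables, had a log2 fold change of -0.73 (SE 0.18, adjusted p = 0.0963, edgeR), with the WD libraries below the control libraries, and was past the threshold of DESeq2. NEFL (-0.63) and THY1 (-0.61) have an ID only through the rows with the smallest p of the study's comparison, so nothing is read from their direction. WD15 had the lowest sum of the 3 markers and the lowest DLG4, and CON13 had the highest of both. The difference between the groups enters this match, which was not tested.

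Of the 11 markers of microglia, 7 have an ID through the class tables. These 7 had log2 fold changes from 0.49 to 0.98, all above 0, with a median of 0.66, 0 past the threshold in edgeR or DESeq2 and 4 at an unadjusted p under 0.05 in edgeR (9.31% of all genes). The other 4 (AIF1, CX3CR1, P2RY12 and TYROBP) have one only through the study's comparison. The sum of the 11 was between 251 and 396 CPM in control and between 315 and 924 CPM in WD libraries, highest in WD15. Without WD15, the log2 fold change was 1.19 for RNF216, -2.02 for ARC and -0.50 for DLG4.

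Of the 5 magnocellular markers with an ID through the class tables, 1 was past the threshold (0.499% of all genes), the opioid peptide precursor PDYN (log2 fold change 1.93, SE 0.22, adjusted p = 3.0e-04, edgeR). The granin SCG2 (1.48, SE 0.29) has its ID only through the study's comparison, so nothing is read from its direction. The sum of these 6 markers was between 538 and 749 CPM in control and between 882 and 1397 CPM in WD libraries, and like RNF216 it was lowest in WD8 and WD15 among the latter. PDYN (162 CPM in control and 618 CPM in WD libraries on average) and SCG2 (32.0 and 93.6 CPM) account for the higher sum, since the other 4 markers had lower means in WD libraries. The means of these 4, all transcription factors, were 71.0 CPM in control and 68.8 CPM in WD libraries for SIM1, 366 and 359 CPM for ARNT2, 39.5 and 25.7 CPM for OTP (log2 fold change -0.58, adjusted p = 0.454, edgeR) and 6.13 and 4.95 CPM for CREB3L1, and 0 of the 4 were past the threshold. The 4 astrocyte markers with an ID, all through the study's own comparison, summed to between 311 and 423 CPM in control and between 479 and 627 CPM in WD libraries, a distance that the choice of these markers partly sets.

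Sums for the oligodendrocyte lineage (8 genes, 118 to 316 CPM in control and 115 to 234 CPM in WD libraries) and for endothelium (7 genes, 244 to 434 CPM and 257 to 526 CPM) overlapped. Every marker measured had at least 1 read pair in each library, so none was at 0.

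**Figure D5:**
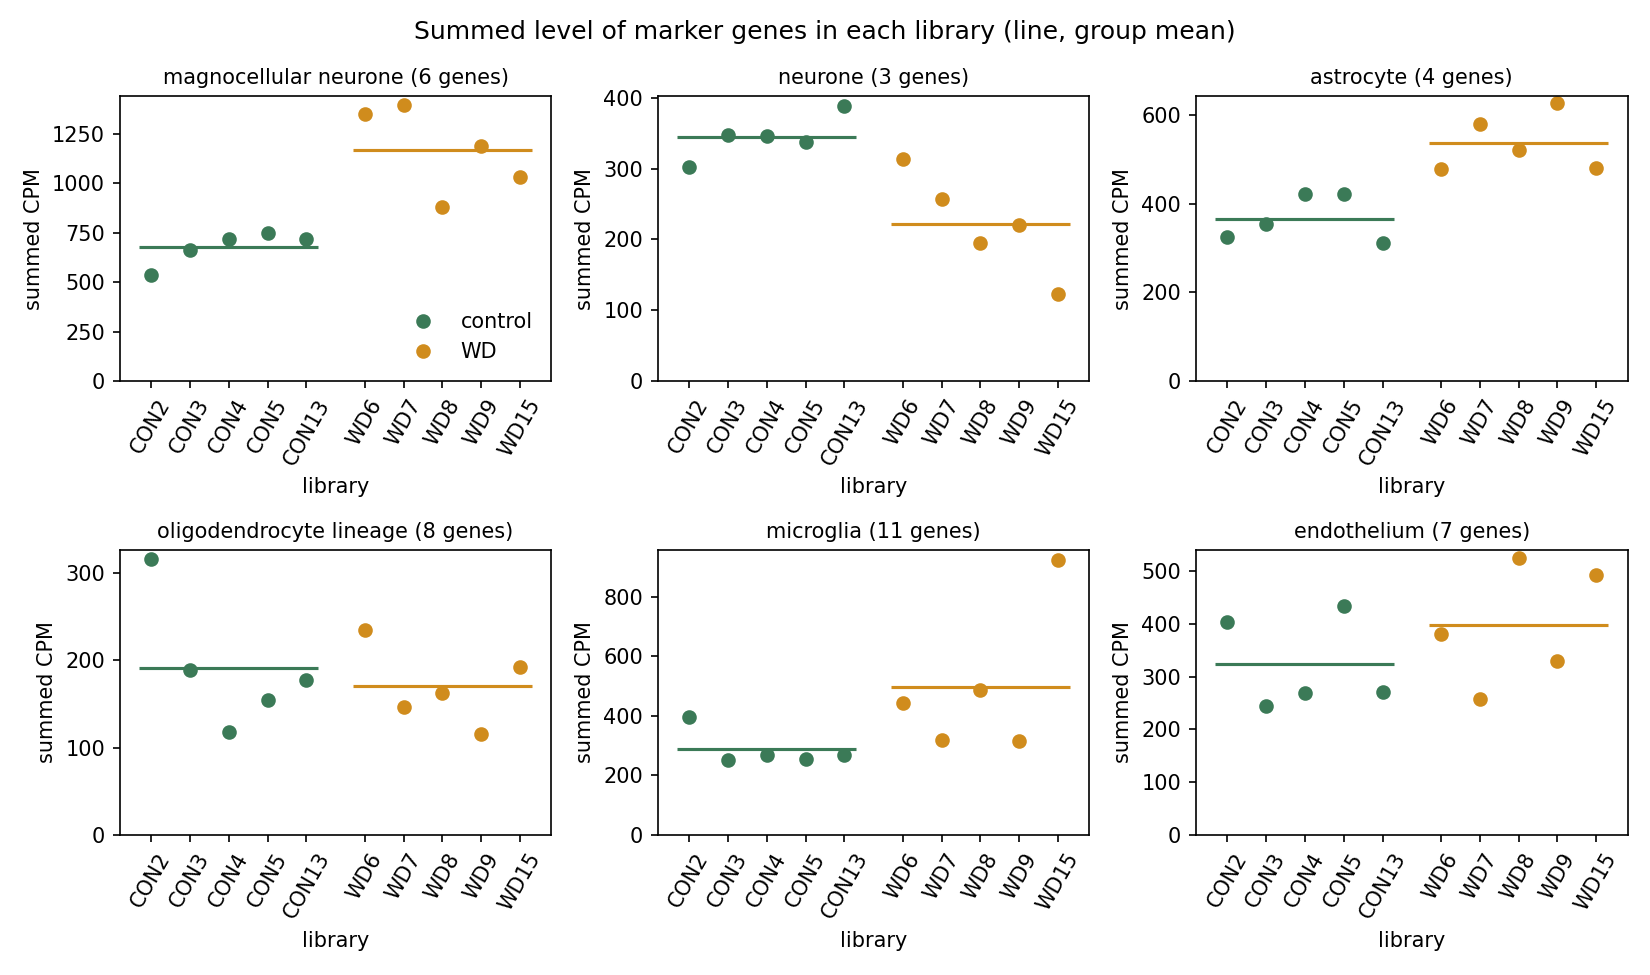
Summed CPM of the marker genes of 6 cell types in each library, green for control and orange for WD, with group means as lines and axes that start at 0. The neuronal sum is lowest and the microglial sum highest in WD15, and the magnocellular sum is higher in every WD library than in any control library.

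Over the 10 libraries, the genes with a symbol whose log2 CPM was most like that of RNF216 were ADRA1B (an adrenergic receptor, r = 0.956), PDYN (0.956) and PRKCSH (a subunit of glucosidase II of the endoplasmic reticulum, 0.949), out of 3167 compared. For ARC, those given here are MINAR1 (0.941) and NXN (nucleoredoxin, 0.937). For DLG4 they were RAP1GAP (which inactivates the small GTPase RAP1, 0.978), PDE1B (a calmodulin-dependent phosphodiesterase, 0.968) and PLXNA4 (a semaphorin receptor, 0.961). The difference between the groups enters these r, and the genes with a symbol include those with the smallest p of the study's comparison.

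With the group means taken away, the 3 most alike were KBTBD7 (0.966), ADRA1B (0.91) and DNASE1L1 (0.906) for RNF216. They were FSTL4 (0.906), KLHL40 (0.889) and CXCL16 (0.88) for ARC, and PDE1B (0.957), GNAZ (0.946) and RAP1GAP (0.938) for DLG4. ADRA1B stood beside RNF216, and PDE1B and RAP1GAP beside DLG4, both with and without the difference between the groups, while no gene did so for ARC. All are the highest r of 3167 genes over 10 libraries. How high such r run by chance was not tested, so no link between genes is read from them. KLHL40 and CXCL16 had only 168 and 120 read pairs in all. KBTBD7 had a mean of 8.24 CPM in control and 5.53 CPM in WD libraries, so that it varied with RNF216 among camels of a group while its mean differed the other way.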

How the data were processed

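RNA of the rostral SON was sequenced from 5 control and 5 WD camels. Per the study's methods, the authors merged the paired reads, trimmed adaptors (BBDuk), mapped the result with STAR on the genome Camdro2 and counted read pairs per gene with featureCounts. They deposited these counts, which are whole numbers without normalization, with 1 column a library, and they also deposited DESeq2-normalized values, not used here. The strand setting, the annotation release and the handling of pairs that match several genes are not given in the sources used here, so overlapping genes could share reads. No other ID had counts within 1% of those of RNF216, ARC or DLG4.

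Computation used R 4.3.3 with edgeR 4.0.16 and DESeq2 1.42.0, and Python 3.11.15 with pandas 2.3.3 and scipy 1.17.1. The main comparison was edgeR's quasi-likelihood F test on all 10 libraries (TMM, filterByExpr by group, robust fit, Benjamini-Hochberg adjustment over 14432 genes, threshold 0.05). The SE is the size of the log2 fold change divided by the square root of F. The biological coefficient of variation was 0.285. Ratios used a pseudocount of 0.5, and log2 CPM a prior count of 0.5. The code was tested on simulated counts.

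Symbols came from the supplementary tables, which pair 4316 IDs with a symbol. No genome or sequence of Camdro2 was used, so no position or sequence is printed. The 3 genes and all lists were chosen with earlier results of these data known. Genes named are the 3, list genes past the threshold, the 2 largest fold changes per list from the class tables, and the 3 most alike genes for each. Results on some genes are not reported here. Other genes (EGR1, NR4A2, PLK2, FOSL2, NR4A1, FOSL1, TRAF3, RBCK1, MDM2, NOS1, ADAM22, ERBB4, PTK2B, FYN, ADGRB3, SRF, MEF2C, MEF2A, the partners with an ID from the study's comparison only, those below the filter, and markers) were named after their values were seen. Alternatives were DESeq2's test or size factors, library totals with and without the dominant IDs, other filters (none, or at least 10 counts in every library), RIN or depth group as a covariate, each library left out and, chosen after the data were seen, CON13 and WD6 left out together. For ratios they were a pseudocount of 2 and medians.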

Additional observations from a re-analysis of the deposited data

Results flagged for a closer look

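In 34 groups of 5 libraries, 1 in each condition for RNF216, ARC, DLG4, their 3 ratios and 11 of the list genes named (CREM, FOS, SIK1, ELK1, CAMK2A, CAMK2B, TLR4, RIPK1, PSMB9, PSMB1 and EPHB2), the library farthest from the others was compared with the group's range, and 3 libraries stood apart by Dixon's criterion (0.71 for 5 values). Chance gives about 1 in 20 such groups. Other genes in the text were not checked in this way. None of the 3 concerned RNF216, ARC or DLG4.

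CREM in the control library CON13 had 1 read pair, or 1.20 CPM, while the other control libraries had between 5.85 and 8.11 CPM (gap of 0.826 of the range on the log2 scale). Without CON13, the log2 fold change of CREM was 1.66 in place of 1.77, and it stayed past the threshold. CAMK2A was at 68.2 CPM in CON13, from 57 read pairs, while the other control libraries had between 86.3 and 89.7 CPM (gap of 0.863). Without CON13, its log2 fold change was -0.93 (adjusted p = 0.0498, edgeR) in place of -0.87. PSMB9 had 0 read pairs in WD6, while the other WD libraries had between 1.66 and 5.83 CPM (gap of 0.711). CON13 and WD6 are the libraries in which 1 read pair is worth most, and the part of depth in these values was not tested.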

How the results depend on the processing

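The log2 fold changes of RNF216, ARC and DLG4 and their 3 ratios kept their direction and stayed within the spread between libraries under every alternative that gave a value. ARC has none where at least 10 counts in every library are required, nor has CREM. With library totals alone the SE was larger, and the value of DLG4 was close to it. The log2 fold changes were then 1.24 (SE 0.41) for RNF216, -1.68 (SE 0.54) for ARC and -0.42 (SE 0.40) for DLG4. The count of genes past the threshold was 72. It was 209 with DESeq2's Wald test, 10 with library totals alone (7 higher and 3 lower, or 70% higher in place of 54.2%, with a median log2 fold change over all genes of 0.16 in place of 0.02) and 224 with depth group as a covariate. With a library left out it was between 40 (without CON3) and 102 (without WD6), and it was 42 without CON5. The count of list genes past the threshold was 3, and it was 5 with DESeq2's Wald test, 0 with library totals (439 of all genes at an unadjusted p under 0.05), 5 with depth group as a covariate and between 2 and 4 with a library left out. Under library totals, 10 of the 12 genes of ubiquitin and proteasome were higher in place of 7. The median log2 fold change of the 15 DLG4 partners from the class tables was then -0.07 in place of -0.22, with 6 higher and 9 lower. That of the 9 ARC transcription factors was 0.38 in place of 0.17. CREM and FOS were past the threshold in all 10 fits with a library left out, but not with library totals (adjusted p = 0.155 for CREM and 0.221 for FOS, edgeR). The adjusted p of SIK1 lay between 0.00135 and 0.59, and that of CAMK2A between 5.9e-04 and 0.99998 (edgeR or DESeq2), over the alternatives. The cause was not tested.

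No paired analysis was possible because the control and WD libraries share no replicate number in the labels. With 5 camels a group, ARC at 186 read pairs is the least precise of the 3 genes.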
